A study of Mus musculus with 28 samples.

Results

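The probes described here are those whose name on the array is a stretch of the mouse genome in place of a transcript, written as chromosome, start and end in build mm9 with the suffix F or R. The files hold 16181 such probes among 55681 non-control probes, or 29.1%, and every one of them was kept. They carry 4607 interval and strand names over 3540 distinct intervals, of which 1067 had probes with both suffixes, 1251 only F and 1222 only R. A name held 1 to 10 probes with a median of 3, and 13 further interval probes in 3 names had no suffix and fell outside the rule. The design calls these intervals intergenic noncoding RNA; their position relative to genes was not analysed here, because no mm9 annotation was used, and no interval is given a gene name. Probe sequences were not used here either.

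Long noncoding RNAs made between protein-coding genes are often spliced and polyadenylated like messenger RNAs but are not translated. Many stay in the nucleus, where known members act as scaffolds for nuclear bodies or recruit chromatin proteins, and as a class they are less abundant and more restricted to particular tissues than messenger RNAs. In the liver, phenobarbital acts through the nuclear receptor CAR, whose best known target is Cyp2b10, a cytochrome P450 enzyme.

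The study prepared archival tissue for Agilent arrays. The RNA came from formalin-fixed, paraffin-embedded liver blocks, 16 years old, of male B6C3F1 mice with a labelled age of 42 days. In the phenobarbital group, 3 mice received 0.05% phenobarbital in their drinking water for about 4 weeks, and in the control group 3 mice received drinking water alone. The same 6 mice were measured in 4 sets of arrays: one-colour with the 1X cDNA input (6 arrays), one-colour with 1.5X (6 arrays), two-colour with 1X (8 arrays) and two-colour with 1.5X (8 arrays). The RNA was copied by whole-transcriptome amplification into double-stranded cDNA, so an F and an R probe are different sequences of one interval and do not report the strand of a transcript. Each set was 1 slide, so that input and slide cannot be told apart within a format. With 3 mice in a group, a p-value sets a difference against the spread between these mice, and the number of mice limits its precision.

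The exposure labels were checked on genes known to respond to phenobarbital. All 5 of them (Cyp2b10, Cyp2c55, Gstm3, Por and Cyp3a11) were higher after phenobarbital in the one-colour data averaged over inputs, with a median log2 difference of 2.97. Cyp2b10 was well above background on 0 of 6 control arrays and on 6 of 6 phenobarbital arrays. All 8 hepatocyte markers were detected on every one-colour control array and 0 passed the test there. On the two-colour 1X arrays, with the mouse numbers of the array descriptions, 2 of the 8 were called lower (median log2 difference -0.20). Of the Kupffer cell and macrophage markers, 5 were tested over both one-colour inputs and 1 was called higher. Markers of pancreas were present too: 6 of 7 were detected on all control arrays, with summed levels of 122 to 444 in controls and 80.6 to 452 after phenobarbital. The median log2 difference of these markers was -0.94 over both one-colour inputs and -0.83 on the two-colour 1X arrays, with 0 called, and their part in the results below was not tested.

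Interval probes were seen above background less often than the other probes on the same arrays. A probe is called detected where the scanner software flags its spot as well above background. On the one-colour 1X arrays 42.0% ± 3.60 (SD, n = 6 mice) of interval probes were detected, from 37.3% to 46.5%, against 50.5% ± 2.76 of the other probes and 0.216% ± 0.168 of the negative control spots. The gap was 8.55 percentage points (SD 0.938), with the intervals below in 6 of 6 mice (exact sign-flip permutation test, two-sided p = 0.03125, the smallest this design allows). On the one-colour 1.5X arrays the shares were 22.3% ± 3.48 and 37.3% ± 3.63, a gap of 15.0 points (SD 0.305) with the same exact p of 0.03125. With the software's less strict flag for a positive and significant signal, the gaps were 2.58 and 9.59 points in the same direction. Among the other probes, those for RefSeq messenger RNAs were detected at 54.4% and those for RefSeq noncoding RNAs at 35.7% on the 1X arrays, so that the intervals lay between these classes. On the 1.5X arrays the class of RefSeq noncoding RNAs stood at 20.9%, close to the intervals.

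**Figure D1:**
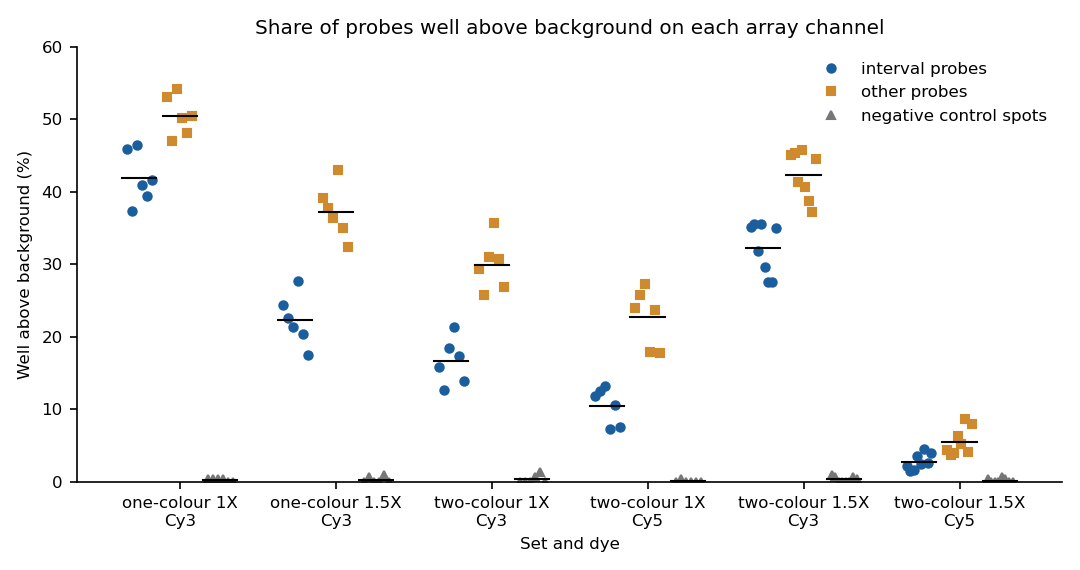
The vertical axis gives the percentage of probes flagged well above background, and each point is 1 array channel of a set and dye; blue circles are interval probes, orange squares other probes, grey triangles negative control spots, and black bars means. Interval probes averaged 42.0% on one-colour 1X arrays and 2.77% in the Cy5 channel of two-colour 1.5X arrays, and lay below the other probes in every set and dye.

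Detection differed between sets, lower at 1.5X on one-colour arrays and in Cy5, and higher at 1.5X in Cy3 of the two-colour arrays. Within mice, the 1.5X one-colour arrays detected 19.6 points fewer interval probes than the 1X arrays (SD 4.87, lower in 6 of 6 mice, exact sign-flip p = 0.03125). In two-colour 1X arrays the interval share was 16.6% ± 3.16 (SD, n = 6 channels) in Cy3 and 10.5% ± 2.54 in Cy5. Two-colour 1.5X arrays gave 32.2% ± 3.57 in Cy3 and 2.77% ± 1.13 in Cy5 (n = 8 channels each). The Cy5 channel of that set therefore carried few members, and only 141 interval probes were detected on all 8 of its channels.

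Exposure was not accompanied by a difference in detection that this design could show. Averaged over both one-colour inputs, the 3 control mice had 35.2%, 30.0% and 33.9% of interval probes detected, and the 3 phenobarbital mice 34.3%, 30.0% and 29.6%. The groups overlapped, and their means differed by -1.73 points (exact permutation test over mice, two-sided p = 0.5, where the smallest possible is 0.1).

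Detection was shared out unevenly over the intervals. On the one-colour 1X arrays 5038 interval probes (31.1%) were detected on all 6 arrays, 3827 on some and 7316 (45.2%) on none. Counted by interval, 2038 of 3540 (57.6%) had at least 1 probe detected on all 6 arrays, and 725 had no probe detected on any. Of the 3112 intervals with 2 or more probes, 213 had all of them detected on all arrays, 1690 some and 1209 none, so most detected intervals were seen by only a part of their probes. Probes were also put into classes of similar size by the length of their interval. In the class of the shortest intervals 889 of 4066 probes (21.9%) were detected on all arrays, against 33.7% to 34.7% in the 3 longer classes. By chromosome the share ran from 21.2% on chromosome 10 to 37.8% on chromosome 17.

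The F and R probes of one interval were often detected together. Of the 1067 intervals with both, 562 had at least 1 F and 1 R probe detected on all one-colour 1X arrays, 194 only F, 150 only R and 161 neither. An R probe was detected in 74.3% of intervals with a detected F probe and in 48.2% of those without. On the one-colour 1.5X arrays this held for 227 of 401 intervals and for 120 of 666. Among the 73 pairs with a single probe on each strand, 21 had both detected on the 1X arrays, 16 had 1 strand and 36 had neither.

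A small core of interval probes was seen everywhere. In all 40 channels whose labels settle the exposure, 138 interval probes (0.853%) were detected, against 2.50% of the other probes. Leaving out chromosome 18, these probes fell into 85 loci, where a locus joins intervals lying within 10 kb of each other. The locus chr17:39960567-39992817 held 19 of them among its 20 interval probes, and the locus chr19:5771425-5848475 held 15 among 27. Next came chr6:47595238-47728525 with 4 of 21 probes, then chr14:22267795-22319045 with 3 of 20 and chr17:17315025-17507525 with 3 of 25, while 73 loci had 1 such probe each. Across both one-colour inputs these 138 probes differed between exposures by a median log2 value of 0.07, from -1.26 to 1.07, and 1 passed the test described next. At the chromosome 17 locus the core probes had a median difference of 0.31, and 0 of the 20 passed.

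Phenobarbital was compared with control by mouse, with limma over every probe detected on all arrays of at least 1 exposure group and Benjamini-Hochberg adjustment over all of these; a call is an adjusted p under 0.05. A probe that entered this way through the group where it is high had to differ, so the counts below describe the probes tested and not all members. With each mouse averaged over both one-colour inputs, 3040 interval probes were tested and 17 were called (0.559%), 9 higher and 8 lower, in 9 intervals. Over all 16299 probes tested, 0.73% were called, so the share of interval calls in both directions together lay near the background. By direction, 0.296% of interval probes were called higher, against 0.626% of all probes, and 0.263% lower, against 0.104%. The difference in direction was not tested. At an unadjusted p under 0.05 there were 405 interval probes of 3040 and 2197 probes of 16299 in all. The median log2 difference was -0.03 over the interval probes tested and -0.03 over all probes. Leaving out control mouse 1, 2 or 3 gave 4, 11 or 7 interval calls, and leaving out phenobarbital mouse 1, 2 or 3 gave 34, 5 or 3. Without scaling between arrays, which moved the median of all probes to -0.24, there were 6 higher and 16 lower calls.

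Taken alone, the 1X input gave 8 calls among 6065 interval probes tested (0.132%), all higher, against 0.138% of all probes (0.13% higher and 0.00813% lower). Leaving out control mouse 1, 2 or 3 gave 2, 1 or 2 calls, and leaving out phenobarbital mouse 1, 2 or 3 gave 7, 0 or 1; without scaling, with a median over all probes of -0.29, there were 2 higher and 5 lower. The higher share was 6 of 7 with the percentile taken over all probes and 5 of 8 after normexp and quantile normalization. The 1.5X input gave 5 calls among 3118 (0.16%), 2 higher and 3 lower, against 0.245% of all probes (0.221% higher and 0.0239% lower). There the counts were 1, 0 and 2 without a control mouse, and 34, 2 and 0 without a phenobarbital mouse; the split was 8 higher and 4 lower with the percentile over all probes, and 2 and 2 without scaling. A test of whether the exposure difference itself changed between inputs called 0 of 3040 interval probes and 0.0% of all probes, with 222 interval probes of 3040 and 904 probes of 16299 at an unadjusted p under 0.05. In simulated data this fit found 0 of 200 changes of 2-fold and 148 of 200 of 4-fold, so it could miss a small change. Since no interval probe was saturated on any array, the highest values were not cut short.

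The most uniform rise was at chr4:109071198-109078776, an interval of which all 5 F probes were tested and called over both inputs. Of these, A_30_P01027309, A_30_P01027383 and A_30_P01028033 were not detected on every control array and entered through the phenobarbital group. The 5 calls are therefore not those of 5 probes detected in both groups. Levels are given here as log2 signal relative to the array's 75th percentile over the probes detected on all arrays of the set. Probe A_30_P01022774 stood at -4.10, -3.80 and -3.90 in the 3 control mice and at -2.32, -2.34 and -2.31 in the 3 phenobarbital mice. All 3 treated mice lay above all 3 controls. The log2 difference was 1.61 (SE 0.15, adjusted p = 0.00696), and this probe was also called in the 1X set (1.86, adjusted p = 0.0226) and in the 1.5X set (1.36, adjusted p = 0.0383). Over both inputs it stayed past the threshold without any one of the 6 mice, at adjusted p-values up to 0.0447; within either input alone it passed in 0 of the 6 such fits, at up to 0.131 (1X) and 0.166 (1.5X). The other 4 probes differed by 1.56 to 1.89, with adjusted p-values from 0.00709 to 0.0207, and the groups overlapped for none of them; without 1 mouse they passed in 2 to 5 of 6 fits. A second F name, chr4:109071198-109078714, shares the start of this interval; its 5 probes did not pass the detection filter over both inputs, and in the 1X set 2 of them were tested, at a median difference of 0.65 with 0 calls. None of these probes was tested on the two-colour arrays.

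Single probes rose at several other intervals. At chr5:35893909-35899497, probe A_30_P01020543 (R) was at -3.93, -3.95 and -3.64 in controls and -1.50, -2.16 and -1.82 after phenobarbital. That is a log2 difference of 2.01 (SE 0.20, adjusted p = 0.00906), with no overlap, and it passed in 4 of 6 fits without a mouse. At chr17:33995525-34028025, probe A_30_P01032251 (F) was at -5.09, -5.03 and -4.55 against -2.95, -2.87 and -2.81, a difference of 2.01 (SE 0.18, adjusted p = 0.00696) that also stayed past the threshold without any 1 mouse, at up to 0.0459. In controls this probe was detected on 3 of 6 arrays. Another F probe of the same interval, A_30_P01031033, was called in the 1.5X set, where it was not well above background in any control; phenobarbital was at least 1.85-fold higher (adjusted p = 0.0331). Such bounds set the detected group's mean against the lowest signal well above background on each array of the other group, or the probe's own signal where that was higher. A probe with such a bound entered the test only through the detected group, so a difference was built into its selection. Its adjusted p belongs to the fitted difference and not to the bound, and is no support for a difference. Probe A_30_P01030180 at chr1:74084292-74138492 (R) rose by 1.51 (SE 0.19, adjusted p = 0.0197) and was detected on 2 of 6 control arrays; it passed in 2 of 6 fits without a mouse. On the two-colour 1X arrays, whose mouse numbers are taken up below, 1 probe of this locus was tested. This F probe of the same interval, A_30_P01032937, was lower by -0.78 (limma, adjusted p = 0.0192 by the array descriptions, 0.0811 by the source names).

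Both strands of chr17:95150800-95180650 were called in the 1X set. The F probe A_30_P01019123 was not well above background in any control mouse and was detected in all 3 phenobarbital mice, at least 2.35-fold higher (adjusted p = 0.00643). The R probe A_30_P01024879 showed the same pattern, at least 3.37-fold higher (adjusted p = 0.0132). Both probes entered the test only through the phenobarbital group, where they were high, so these calls are no support for a difference. Without 1 mouse the F and R probes passed in 4 and 2 of 6 fits. Neither was tested in another comparison. At chr10:94134000-94149200 the F probe A_30_P01032407 was at least 2.47-fold higher in the 1X set (adjusted p = 0.0461), and passed in 1 of 6 such fits. This probe, too, entered only through the phenobarbital group.

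A locus on chromosome 9 was higher at every probe tested. It joins chr9:78107225-78118850, with F and R probes, and chr9:78104935-78116974, with 1 F probe. Over both inputs the F probe A_30_P01018914 was at -2.28, -1.70 and -1.87 in controls and -0.17, -0.81 and -0.53 after phenobarbital, a log2 difference of 1.45 (SE 0.23, adjusted p = 0.0422). The call was lost when any one mouse was left out, at adjusted p-values up to 0.148. The other 7 probes tested gave differences from 0.99 to 1.34 and did not pass, with adjusted p-values from 0.052 to 0.177. For each of them, too, the 3 treated mice lay above the 3 controls.

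The lower calls gathered in a few places, the first on chromosome 19. The short interval chr19:5834117-5835940 has 3 R probes, and all 3 were called lower over both inputs. Probe A_30_P01029006 was at 6.14, 6.31 and 6.20 in controls and 5.31, 4.83 and 4.74 after phenobarbital, a log2 difference of -1.26 (SE 0.19, adjusted p = 0.0375). A_30_P01025818 went from 4.01, 3.99 and 3.77 to 2.83, 2.41 and 2.40 (-1.37, SE 0.18, adjusted p = 0.021). A_30_P01019037 went from 0.94, 0.73 and 0.56 to -0.54, -0.94 and -1.17 (-1.63, SE 0.20, adjusted p = 0.0204). Controls lay above treated mice without overlap for each probe. With 1 mouse left out, the 3 probes each kept the threshold in 1 of 6 fits, and their adjusted p-values reached 0.0967 to 0.141.

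This interval lies inside the locus chr19:5771425-5848475, most of whose probes were detected in every channel. The other 6 names of the locus gave medians from -0.29 to 0.32 over both inputs, and 0 of their probes were called. Of these, the F probes of the whole span had a median of -0.22 (from -0.48 to -0.01, 10 probes), and the neighbouring chr19:5841103-5845579 a median of -0.29 over its 3 F probes. The difference between the short interval and its neighbours was not tested.

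On chromosome 8 the probes of chr8:26343277-26352902, and of 2 short intervals inside it, were lower. Probe A_30_P01031929, at the nested chr8:26345571-26346095 (R), was at -1.17, -1.27 and -0.86 in controls and -2.37, -2.79 and -2.75 after phenobarbital. It fell by 1.54 on the log2 scale, with an SE of 0.19 and an adjusted p of 0.0189, and was called again in the 1.5X set (-1.56, adjusted p = 0.036). For the outer interval, the F probe A_30_P01025436 gave a difference of -2.18 (SE 0.33, adjusted p = 0.039), the F probe A_30_P01027459 one of -1.90 (SE 0.31, adjusted p = 0.049) and the R probe A_30_P01022248 one of -1.23 (SE 0.19, adjusted p = 0.0427). Groups did not overlap for any of these 4 probes. With 1 mouse left out, they kept the threshold in 2, 1, 1 and 0 of 6 fits, in the order given, and their adjusted p-values reached 0.0857 to 0.185. All 11 probes tested at this locus had values below 0, from -2.18 to -0.58; the medians were -1.81 for the outer F probes, -1.58 for the outer R probes and -1.42 for chr8:26347473-26348052 (R), of which 0 passed. In the 1.5X set the F probe A_30_P01019579 and the R probe A_30_P01022571 were detected in all controls and not well above background in any treated mouse. Controls were at least 1.81-fold and 2.18-fold higher (adjusted p = 0.0344 and 0.0476), and each probe kept the threshold in 1 of 6 fits without a mouse. Both probes entered the test only through the control group, where they were high, so these calls are no support for a difference. The remaining lower call was A_30_P01021274 at chr11:5387350-5403150 (R), from -2.83, -2.76 and -3.12 to -4.68, -4.34 and -4.97 (-1.76, SE 0.20, adjusted p = 0.0163), which passed in 3 of 6 such fits.

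**Figure D2:**
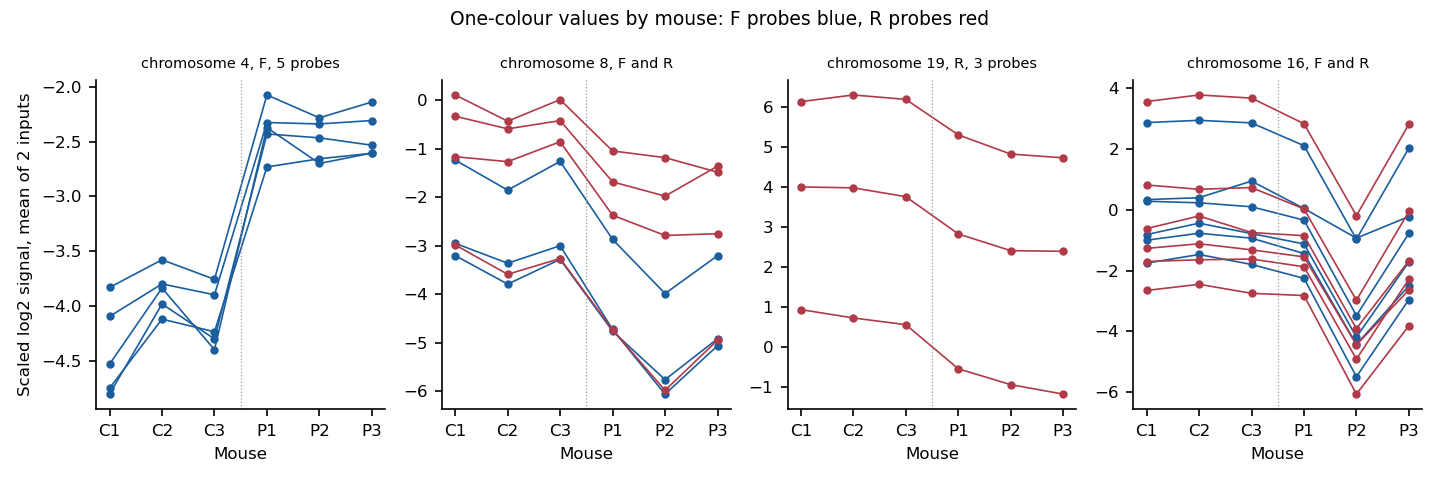
Each line is 1 probe of a locus across the 3 control mice (C1 to C3) and 3 phenobarbital mice (P1 to P3). Values are log2 signal less the array's 75th percentile over probes detected on all arrays of the set. They are averaged over both one-colour inputs, with F probes in blue and R probes in red. The 5 chromosome 4 probes were higher in all phenobarbital mice, the chromosome 8 and 19 probes lower in all of them, and at chromosome 16 mouse P2 lay far below P1 and P3.

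Some larger differences did not pass over both one-colour inputs. Probe differences of -2.83 at chr19:36699712-36763966 (R, adjusted p = 0.149), -2.28 at chr2:67834535-67834914 (F, 0.152) and -2.23 at chr15:58981936-58982322 (F, 0.213) came with a wide spread between the treated mice. At the chromosome 15 interval, for example, probe A_30_P01029901 stood at -3.24, -3.36 and -3.11 in controls and at -3.69, -6.47 and -6.26 after phenobarbital, where 1 treated mouse lay near the controls. In the other direction the values were 1.85 at chr7:82902248-82955248 (R, adjusted p = 0.157), 1.53 at chr17:12965849-12968519 (F, 0.0516) and 1.52 at chr1:138570107-138632310 (R, 0.249).

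Mouse numbers had to be settled before the two-colour 1X arrays could be read. Arrays 4 and 8 of that set carry opposite exposures for a dye in their description and channel labels and were left out. On the other 6 arrays, 4 of the 12 channels have different mouse numbers in the description and the source name, though the same exposure. Each channel's deviation from its group mean was set against the 3 mice of that group in the one-colour data, over 10033 probes of every kind. For these 4 channels the Pearson correlation with the mouse of the source name was 0.409 to 0.707, and with the mouse of the description -0.348 to -0.132. The 8 channels without a conflict were each most like their labelled mouse. Averaging by the description therefore joins channels of different mice, which leaves group means as they are and changes the spread between the averages.

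**Figure D3:**
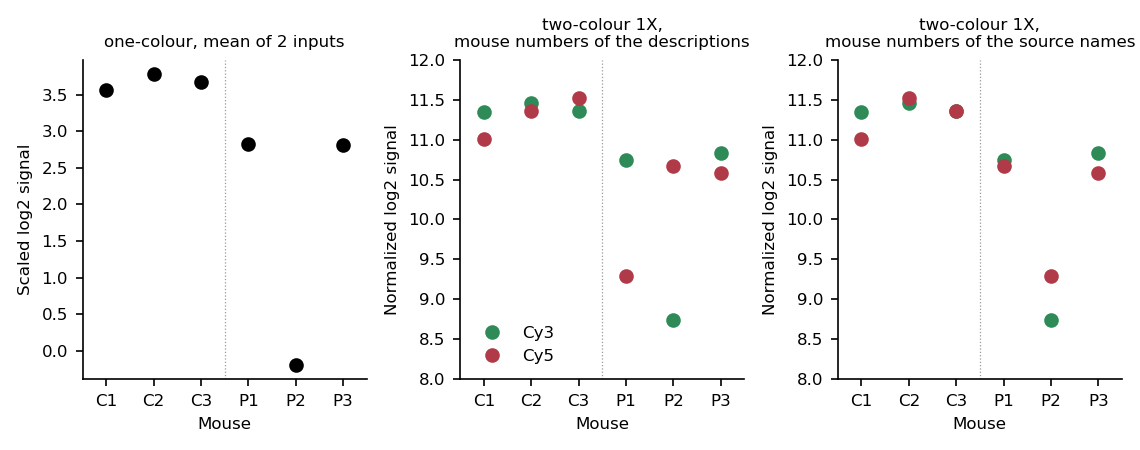
The panels show the chromosome 16 probe A_30_P01025497 by mouse: log2 one-colour signal (left), and normalized log2 signal of each two-colour 1X channel (Cy3 green, Cy5 red) by the mouse numbers of the descriptions (middle) and of the source names (right). Under the source names both low channels belong to P2, the mouse with the low one-colour value of -0.19.

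Read by the description, 92 of 1527 interval probes tested in the two-colour 1X set were called (6.02%), 29 higher and 63 lower, against 6.42% of all 10043 probes (3.28% higher and 3.15% lower). Read by the source names, 11 were called, 3 higher and 8 lower, against 1.21% of all probes, and all 11 are among the 92. Without the average that the description numbers control 1, 2 or 3, the counts were 52, 45 and 34. Without phenobarbital 1, 2 or 3 they were 46, 43 and 131. By the source names, the averages numbered control 2 and 3 and phenobarbital 1 and 2 join channels of different mice. Leaving out 1 of these averages removes no whole mouse. Fold changes are the same under both readings. Since this set uses the same mice as the one-colour sets, its values stand beside theirs and are no independent replicate.

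The chromosome 19 interval had the smallest adjusted p-values among interval probes by the source names. There A_30_P01025818 had normalized log2 signals of 11.99, 11.89 and 11.86 in controls and 11.02, 10.37 and 10.48 after phenobarbital, a difference of -1.29 (SE 0.16, adjusted p = 0.0105). A_30_P01029006 differed by -0.97 (SE 0.12, adjusted p = 0.0101) and A_30_P01019037 by -0.88 (SE 0.11, adjusted p = 0.00883), again without overlap. On chromosome 8, both nested probes A_30_P01031929 (-0.65, SE 0.10, adjusted p = 0.0212) and A_30_P01032425 (-0.76, SE 0.12, adjusted p = 0.027) were called, as was the outer F probe A_30_P01027459 (-0.58, SE 0.11, adjusted p = 0.047).

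Probes of chromosomes 2, 8, 9 and 11 made up the rest. At chr9:78107225-78118850 the R probe A_30_P01023273 was at 10.58, 11.08 and 10.79 in controls and 12.17, 11.51 and 11.94 after phenobarbital, a difference of 1.06 (SE 0.19, adjusted p = 0.035). The F probe A_30_P01020518 at chr9:78104935-78116974 rose by 0.82 (SE 0.15, adjusted p = 0.0442). A_30_P01027755 at chr8:74820025-74833350 (F) rose by 0.55 (SE 0.10, adjusted p = 0.0431); over both one-colour inputs it differed by 0.60 (adjusted p = 0.135). The lower probes were A_30_P01024596 at chr2:67836003-67836461 (F), with -1.36 (SE 0.21, adjusted p = 0.022) against -1.45 in the one-colour data (adjusted p = 0.0667), and A_30_P01026685 at chr11:116936834-116948799 (R), with -0.81 (SE 0.15, adjusted p = 0.0429) against -0.91 (adjusted p = 0.117). Each of these probes had the same sign in both formats.

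One locus shows what the mouse numbers change. At chr16:23992037-24001037, 4 F and 6 R probes were called lower by the description and none by the source names. Over both one-colour inputs its R probe A_30_P01025497 was at 3.56, 3.78 and 3.68 in controls and at 2.83, -0.19 and 2.82 after phenobarbital, so phenobarbital mouse 2 lay far below the other two and all 3 lay below the controls. The one-colour difference was -1.85 (SE 0.74, adjusted p = 0.345). In the two-colour 1X set the same probe differed by -1.20, with adjusted p = 0.0167 by the description and 0.229 by the source names. Formats could also differ in sign: probe A_30_P01021571 at chr1:182686731-182709331 (R) differed by -0.86 in the two-colour 1X set (adjusted p = 0.012 by the description, 0.074 by the source names) and by 0.31 over both one-colour inputs (adjusted p = 0.731). The difference between these values was not tested.

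**Figure D4:**
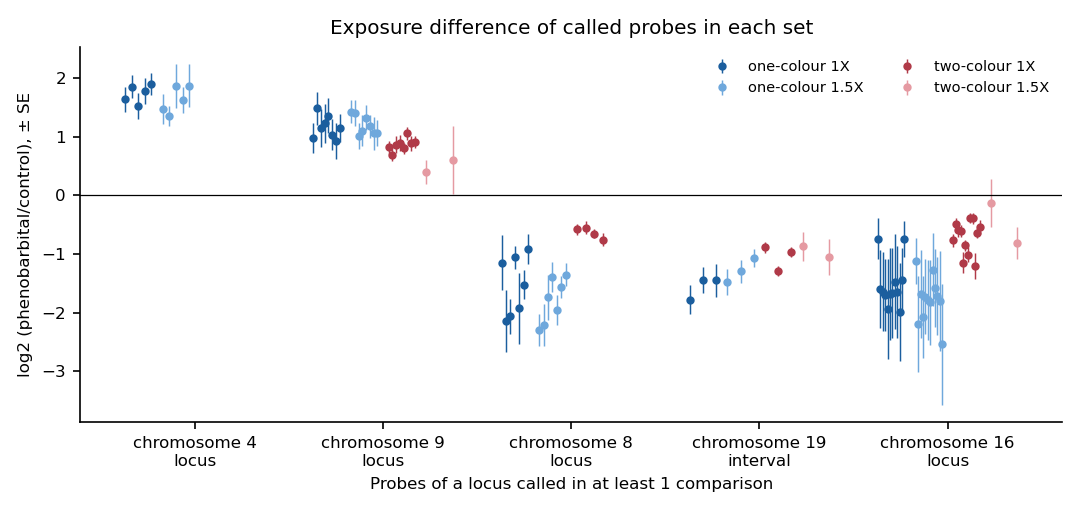
Points are log2 phenobarbital over control differences with their SE for the named probes of each locus that were tested in a set; the two-colour 1X errors are those of the description's mouse numbers. The chromosome 4 and 9 probes lie above 0 and the chromosome 8 and 19 probes below 0 in every set that tested them, and no two-colour 1.5X value passed.

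In the two-colour 1.5X set 0 of 314 interval probes and 0.0% of all 1823 probes were called by limma, with 7 interval probes and 35 probes in all at an unadjusted p under 0.05. With the Cy3 channels alone, where many more probes pass the filter, 2 of 4626 interval probes were called, both lower, and 22 of 20076 probes in all. The chromosome 19 probes A_30_P01025818 and A_30_P01029006 differed by -0.87 (SE 0.25) and -1.05 (SE 0.31) in this set, both with an adjusted p of 0.999. For A_30_P01029006 the mice stood at 11.96, 12.54 and 11.92 in controls and 11.16, 10.56 and 11.54 after phenobarbital, without overlap. Among the probes with the smallest p here was A_30_P01022524 at chr7:118248833-118267766 (F), with controls at 12.43, 11.80 and 13.02 and treated mice at 13.37, 13.86 and 14.17 (1.38, adjusted p = 0.999). The phenobarbital targets likewise gave 0 calls among 3 tested here.

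The exposure differences of the 2 strands of an interval tended to go the same way. Over both one-colour inputs 302 intervals had F and R probes tested, and the mean differences of their strands had a Pearson r of 0.453 (Spearman rho 0.356) across intervals, with 193 of one sign. These are 302 intervals of the same 6 mice, so the value is a description. In 1 interval, chr8:26343277-26352902, both strands were called, with means of -1.59 for F and -1.58 for R. Both strands were called in 1 of 651 pairs in the 1X set (chr17:95150800-95180650), in 1 of 307 in the 1.5X set (the chromosome 8 interval) and, in the two-colour 1X set, in 5 of 144 by the description's numbers and in 0 by the source names. The probes called in the 1X pair and in the 1.5X pair entered the test only through the group where they were high. Besides the intervals on chromosomes 8, 9 and 16, the 5 two-colour pairs were chr14:22267795-22319045, with means of -0.25 and -0.30, and chr6:116092274-116144199, with 0.33 and 0.28. By the source names the probes called there had adjusted p-values from 0.226 to 0.399 on chromosome 14 and from 0.116 to 0.385 on chromosome 6. In the two-colour 1.5X set 12 pairs could be compared and r was -0.18.

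**Figure D5:**
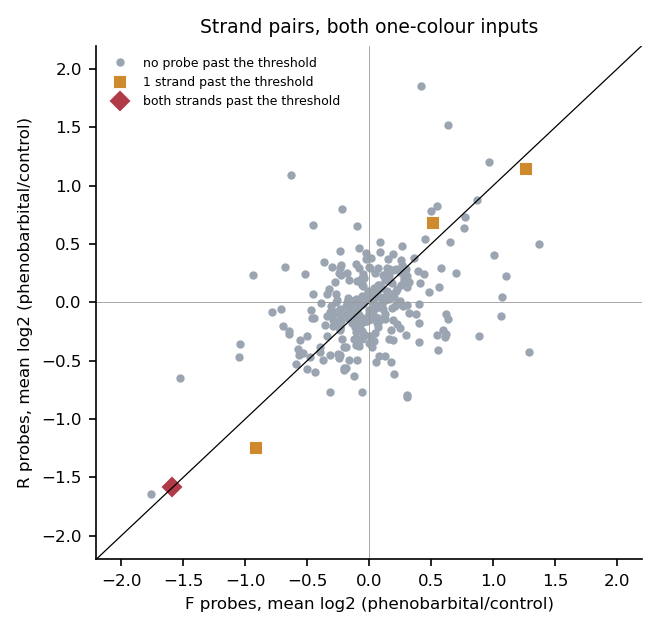
Each point is 1 of 302 intervals with tested probes on both strands, placed by the mean log2 phenobarbital over control difference of its F probes (horizontal) and R probes (vertical) over both one-colour inputs; the line marks equal values. Most points lie near 0, and the red diamond at -1.59 and -1.58 is the 1 interval with calls on both strands.

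Names with several probes could be read for agreement among them. Of the 365 names with 3 or more probes tested over both inputs, 137 had all their probes on one side of 0. This held for 222 of 797 names in the 1X set and 128 of 379 in the 1.5X set. On two-colour arrays it held for 73 of 169 (1X) and 6 of 13 (1.5X). No reference from other probes stands beside these counts, so they are a description.

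The loci with the most probes had few calls. At chr1:138442536-138632310, which joins 13 intervals with 78 probes, 11 probes were tested over both inputs, with a median difference of 0.11 and 0 calls. The next loci were chr12:110842149-110988678 (64 probes, 2 tested, median 0.25), chr6:30983012-31293337 (52 probes, 18 tested, median -0.15), chr13:94180737-94203935 (50 probes, 7 tested, median -0.21) and chr13:28477490-28985604 (42 probes, 3 tested, median 0.06). None of the 5 had a call in a one-colour comparison. By the description's numbers, 1 probe each was called in the two-colour 1X set at the first locus (adjusted p = 0.0075) and at chr13:94180737-94203935 (0.039), and by the source names 0 were. The probe called at the first locus is the R probe at chr1:138570107-138632310, which differed by 0.53 in the two-colour 1X set. Over both one-colour inputs it differed by 1.52 and did not pass.

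Probes that carry the name of a noncoding RNA in place of an interval gave a parallel view. Whether these RNAs overlap any of the intervals was not analysed. Of a list of 75 long noncoding RNAs, 43 had a probe, 16 were tested over both inputs and 0 were called, with a median difference of 0.03 beside -0.03 over all probes. Among the RNAs the array design itself names, NEAT1, the scaffold of nuclear paraspeckles, had all 5 probes tested, at a median of -0.14 and from -0.21 to -0.07. KCNQ1ot1, an imprinted transcript that silences neighbouring genes in cis, had a median of 0.30 over 5 probes with 0 calls, and TUG1 a median of -0.18 over 4.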

How the data were processed

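RNA of 6 mice was measured on 28 Agilent arrays in 4 sets. Per the file headers, version 11.0.1.1 of Agilent's Feature Extraction software wrote the deposited scanner files, which give spot intensity, processed signal intensity and flags; interval names refer to mm9, per the file headers. The authors' deposited series matrix holds the same processed intensity for one-colour arrays and the log10 ratio for two-colour arrays, with its sign turned on 8 of them. One-colour processed signals were taken as log2, less the 75th percentile of the probes that a set detected on all its arrays. Two-colour signals went through normexp (offset 50), loess and Aquantile, and the dyes of a mouse were averaged. Exposures were compared with limma 3.58.1 (R 4.3.3), and p-values were adjusted by Benjamini-Hochberg across every probe tested; two-colour arrays 4 and 8 of the 1X set were left out. The fits were tested on simulated data with 200 changed probes. Of 2-fold changes they found 0 in either one-colour input alone and 84 over both inputs. They found 193 in the two-colour 1X set, by the description's averages, and 100 in the two-colour 1.5X set.

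Mouse numbers of the 2 groups were checked for pairing; the correlations of same-numbered mice were 0.05, -0.10 and 0.25 over both inputs, so no block was used. Probes named are, per comparison, the 10 higher and 10 lower calls with the largest change (the 5 smallest p where fewer than 5 passed), with strand pairs called on both strands, the 5 loci with the most probes, and the 3 largest higher and lower changes that did not pass. Calls by the source names, loci with the most probes detected everywhere and neighbours of named intervals were named after their values were seen. Intervals on chromosome 18 are counted and not named. The members and lists were chosen with earlier results of these data known. The alternatives tried were filters, scaling, background correction, 1 probe per name, dye, mouse numbers and leaving out each mouse.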

Additional observations from a re-analysis of the deposited data

Results flagged for a closer look

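On the two-colour 1.5X arrays with phenobarbital RNA in Cy5, 1 of the 4 control channels (Cy3) stood apart from the others: 31.8% of interval probes were well above background on that array, where the other 3 had 35.1% to 35.6%. The 4 channels come from 3 mice: this array repeats control mouse 2, whose other Cy3 array had 35.5%. This was 1 of 4 groups of channels looked at in this way. Chance would set 1 in 20 such groups apart if their channels were independent, which repeats of a mouse are not.

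The arrays left out for conflicting labels carried interval signal too. On array 4 of the two-colour 1X set 18.4% of interval probes were well above background in Cy3 and 8.44% in Cy5, and on array 8 the shares were 19.7% and 8.44%; 0% of the negative control spots were. Of the 13 interval probes without a strand suffix, 2 were well above background on all 6 one-colour 1X arrays.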

How the results depend on the processing

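All calls are of interval probes by limma. In the one-colour 1X set 8 calls became 0 without the filter on dim probes, 3 with 1 probe per name and 2 with the slide row as a block; leaving out 1 mouse gave 0 to 7. In the 1.5X set 5 calls became 0 under each of those settings, 12 with detection required in both groups, 12 with the percentile over all probes and 21 after normexp and quantile normalization; leaving out 1 mouse gave 0 to 34. Over both inputs 17 calls became 3 without the filter, 4 with 1 probe per name and 30 after normexp (all 17 among the 30), and stayed at 17 with detection in both groups, where 8 were shared; leaving out 1 mouse gave 3 to 34. In the two-colour 1X set 92 calls became 117 without the filter. With 1 probe per name they became 51, with detection in both groups 60 and from the processed channel signals 58. They became 20 from Cy3 alone, 11 with the source names' mouse numbers and 11 with these numbers and all 8 arrays together. Leaving out 1 of the description's averages, which is not always a whole mouse, gave 34 to 131. The two-colour 1.5X set had 0 calls, and 2 from Cy3 alone. The cause of these changes was not tested.

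With the mouse number as a replicate block, the calls were 0 in the 1X set, 0 in the 1.5X set, 13 over both inputs (10 of them among the 17), 148 in the two-colour 1X set and 0 for the difference between inputs; the numbers mark different mice and do not pair them.

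Without 1 mouse the detection gaps ran from -8.83 to -8.32 points (1X), -15.0 to -14.9 (1.5X) and -20.9 to -18.5 (1.5X against 1X), where 5 pairs cannot reach the threshold. No probe named by the rule as a call, or for its small p in the two-colour 1.5X set, changed sign under the settings tried. The other named probes are not covered by this. Low two-colour 1.5X Cy5 signal left 314 interval probes to test there.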
